A study of Mus musculus with 31 samples.

Results

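The genes of MHC class II and of the machinery that loads it with peptide were followed through 31 bulk RNA sequencing libraries of mouse CD4+ T cells and whole spleen. The set holds 10 genes: H2-Aa, H2-Ab1 and H2-Eb1, which encode class II chains, Cd74, Ciita, H2-DMa, H2-DMb1, H2-DMb2, H2-Oa and H2-Ob. They were listed by symbol for their known role, with earlier results of these data known, and no threshold on a measured value was used. They are 10 of the 55276 genes listed for the pre-lymphoma and CD4-Cre sets and of the 49315 listed for the CD4-CreERT2 set. All 10 were found in every library and passed the filter on low counts in every comparison.

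MHC class II is a surface protein of an alpha and a beta chain that shows peptides from the endosome to CD4+ T cells. While the chains mature, the invariant chain (Cd74) fills the peptide groove; H2-DM later takes out the remnant of that chain and helps peptides to bind, and H2-DO inhibits H2-DM. Ciita is the co-activator that turns these genes on together, through a promoter module bound by RFX, CREB and NF-Y proteins. B cells, dendritic cells and macrophages are known as the main class II cells of the spleen, H2-DO is known chiefly from B cells, and mouse T cells are known to make little class II of their own.

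The study compared normal cells, a pre-lymphoma state and tumors in mice of a strain labelled C57B/6 with a conditional Vav1Myo1f fusion allele, a model of peripheral T cell lymphoma. In the pre-lymphoma set, all CD4+ T cells, 2 control libraries have status normal and the genotype label CD4-Cre-ERT2(WT). There, 3 pre-lymphoma libraries carry a label that joins CD4-Cre-ERT2(WT) by a slash to Vav1Myo1ffl/wt;CD4CreERT2 (Vav1Myo1f), and 3 more a label with the fusion allele on both sides of the slash. They are named control/fusion and fusion/fusion below, since the meaning of the slash is not given. The CD4-Cre set holds controls labelled CD4-Cre(WT), with CD4+ cells and spleens of 3 mice, and tumors labelled CD4-CreVav1Myo1f fl/wt, with CD4+ cells of 4 mice and spleens of 3. The CD4-CreERT2 set holds controls labelled CD4-CreERT2 (WT), with CD4+ cells of 2 and spleens of 3 mice, and tumors labelled CD4-CreERT2Vav1Myo1f fl/wt, with CD4+ cells of 2 and spleens of 3 mice. The controls of all sets thus carry a Cre in their label as well. Cre under the Cd4 promoter is used to act in T cells, and CreERT2 acts only in the presence of tamoxifen. Which spleen cells carried the recombined allele was not examined here. Age and the time after tamoxifen were not used here, and sex entered only an alternative fit of the CD4-Cre set. Nothing in the labels tells whether each pre-lymphoma library is its own animal; p-values there rest on the spread from library to library, which may be technical.

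Gene counts summed to between 12632196 and 37568512 per library. CD4+ libraries held Cd4 at 367 to 1075 CPM and spleens at 10.2 to 215 CPM (counts of a gene relative to the TMM-scaled library total, the unit of every level below). Markers of other cells were present in the CD4+ libraries too: the summed level of 11 B cell markers was 70.8 to 3201 CPM there, and no B cell or dendritic marker was at 0 in any library. Some libraries stood apart. The CD4+ library of tumor VM98 had a count for 34546 genes and the spleen of tumor VM294 for 18368, with 28.0% of its counts in 10 genes; a tumor library and control libraries of the CD4-Cre set share the number VM645 under different genotype labels, and were counted as different mice.

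Of the 10 genes, 8 lie in the MHC region of chromosome 17 (GRCm38). In the order of the map they are H2-Oa (ENSMUSG00000024334, 34092340 to 34095234), H2-DMa (ENSMUSG00000037649, 34135182 to 34139101), H2-DMb2 (ENSMUSG00000037548, 34143307 to 34151553), H2-DMb1 (ENSMUSG00000079547, 34153072 to 34160230), H2-Ob (ENSMUSG00000041538, 34238903 to 34245907), H2-Ab1 (ENSMUSG00000073421, 34263209 to 34269418), H2-Aa (ENSMUSG00000036594, 34282744 to 34287827) and H2-Eb1 (ENSMUSG00000060586, 34305877 to 34316199). All of these are on the plus strand except H2-Aa, which is on the minus strand. Ciita (ENSMUSG00000022504) and Cd74 (ENSMUSG00000024610) lie on other chromosomes. The counts of some members are uncertain. H2-DMb1 and H2-DMb2 are neighbouring copies: of the stretches of 50 bases in the GENCODE M21 transcripts of H2-DMb1, 22.7% are also in those of H2-DMb2, so some reads could belong to either. How such reads were counted is not given. Without a stated strand, reads of H2-Oa cannot be told from those of BC051537, an antisense gene that covers all of it, nor those of Ciita and H2-Eb1 from Dexi and Gm20513 where they overlap. BC051537 was counted at no more than 2.15 CPM in any library.

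The promoter module that Ciita works through can be read in the genes themselves, which is why these stretches are shown. RefSeq (GRCm38.p6) gives windows of 300 bases, from 250 before to 50 after a gene start, for 7 of the members; H2-Ab1, Cd74 and Ciita are named only. The Y box, bound by NF-Y, was searched as TGATTGG, and the X2 box, bound by CREB proteins, as ATGATG or, in its cyclic AMP element form, GACGTCA, all on both strands. These letters were chosen after the sequences had been seen. Below, capitals mark those matches, read from 5′ to 3′ along the gene, and distances are counted from the RefSeq start, with negative values upstream.
H2-Aa (chr17:34287854-34287953, minus strand): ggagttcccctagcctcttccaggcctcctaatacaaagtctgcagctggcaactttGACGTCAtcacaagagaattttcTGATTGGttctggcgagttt
H2-Eb1 (chr17:34305737-34305836, plus strand): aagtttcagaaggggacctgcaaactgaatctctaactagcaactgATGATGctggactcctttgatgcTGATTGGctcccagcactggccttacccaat
H2-DMb2 (chr17:34145119-34145218, plus strand): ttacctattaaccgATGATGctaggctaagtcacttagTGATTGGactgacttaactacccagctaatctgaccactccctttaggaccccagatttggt
H2-Ob (chr17:34238775-34238874, plus strand): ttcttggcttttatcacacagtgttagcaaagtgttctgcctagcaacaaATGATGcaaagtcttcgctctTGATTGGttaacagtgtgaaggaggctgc
H2-Oa (chr17:34092249-34092340, plus strand): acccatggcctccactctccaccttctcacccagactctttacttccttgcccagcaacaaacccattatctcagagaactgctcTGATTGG

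TGATTGG stood in 6 of these members and in 7.82% of all 32851 RefSeq windows. It lay at -50 to -44 in H2-Aa, -61 to -55 in H2-Eb1, -63 to -57 in H2-DMb1, -92 to -86 in H2-DMb2, -45 to -39 in H2-Oa and -59 to -53 in H2-Ob, on the plus strand of the gene each time. ATGATG stood in 4 members (H2-Eb1, H2-DMb1, H2-DMb2 and H2-Ob) and in 11.2% of all windows, and GACGTCA in H2-Aa only among the members and in 3.21% of all windows. An X2 match followed by the Y box within 30 bases on the same strand was found in 29 windows, or 0.0883% of all, and 5 of them belong to members. The gap between both was 16 bases in H2-Aa, 17 in H2-Eb1, 18 in H2-DMb1 and H2-DMb2 and 15 in H2-Ob. H2-Oa held the Y box without such a partner. The 2 RefSeq starts of H2-DMa lie 12350 and 9664 bases upstream of its start in the count tables, and neither window held a match. Relative to the RefSeq start, the start in the count tables lies at -1942 in H2-DMb2 and at -119 in H2-DMb1. The pairs of these members thus lie inside the genes as counted. In H2-DMb1, 63 bases of the stretch from -130 to -57 lie in annotated exons. A match is a run of letters and not a measured binding site.

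Cd74 was the most abundant member and Ciita or H2-Oa the least, when levels were set per kilobase of exon so that genes could be compared. The exon lengths given with the CD4-CreERT2 set were used for all sets. Cd74 ranked first in all 11 groups, from 734 ± 65.6 CPM per kilobase (SD, n = 2) in pre-lymphoma controls to 13780 ± 9995 (n = 3) in CD4-CreERT2 tumor spleens. H2-Ab1 ranked second in the CD4-Cre and CD4-CreERT2 groups, and H2-Eb1 in the 3 groups of the pre-lymphoma set. There the chains lay close together: in controls H2-Eb1 stood at 311 ± 31.4, H2-Ab1 at 264 ± 18.2 and H2-Aa at 245 ± 15.5 CPM per kilobase, and H2-Ab1 and H2-Aa did not differ beyond their spread. Without division by length the order in these controls was the reverse, with means of 368, 432 and 459 CPM, so it depends on the lengths used. Ciita was lowest in 10 groups, from 11.4 ± 1.38 to 85.0 ± 4.74 CPM per kilobase. In CD4-Cre tumor spleens H2-Oa was the lowest, at 63.1 ± 41.5 against 91.6 ± 67.2 for Ciita, which did not differ beyond their spread. The class II alpha chain that pairs with H2-Eb1, H2-Ea-ps, is known to be inactive in mice of this background, and it was counted at 0 to 0.517 CPM over all libraries.

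**Figure D1:**
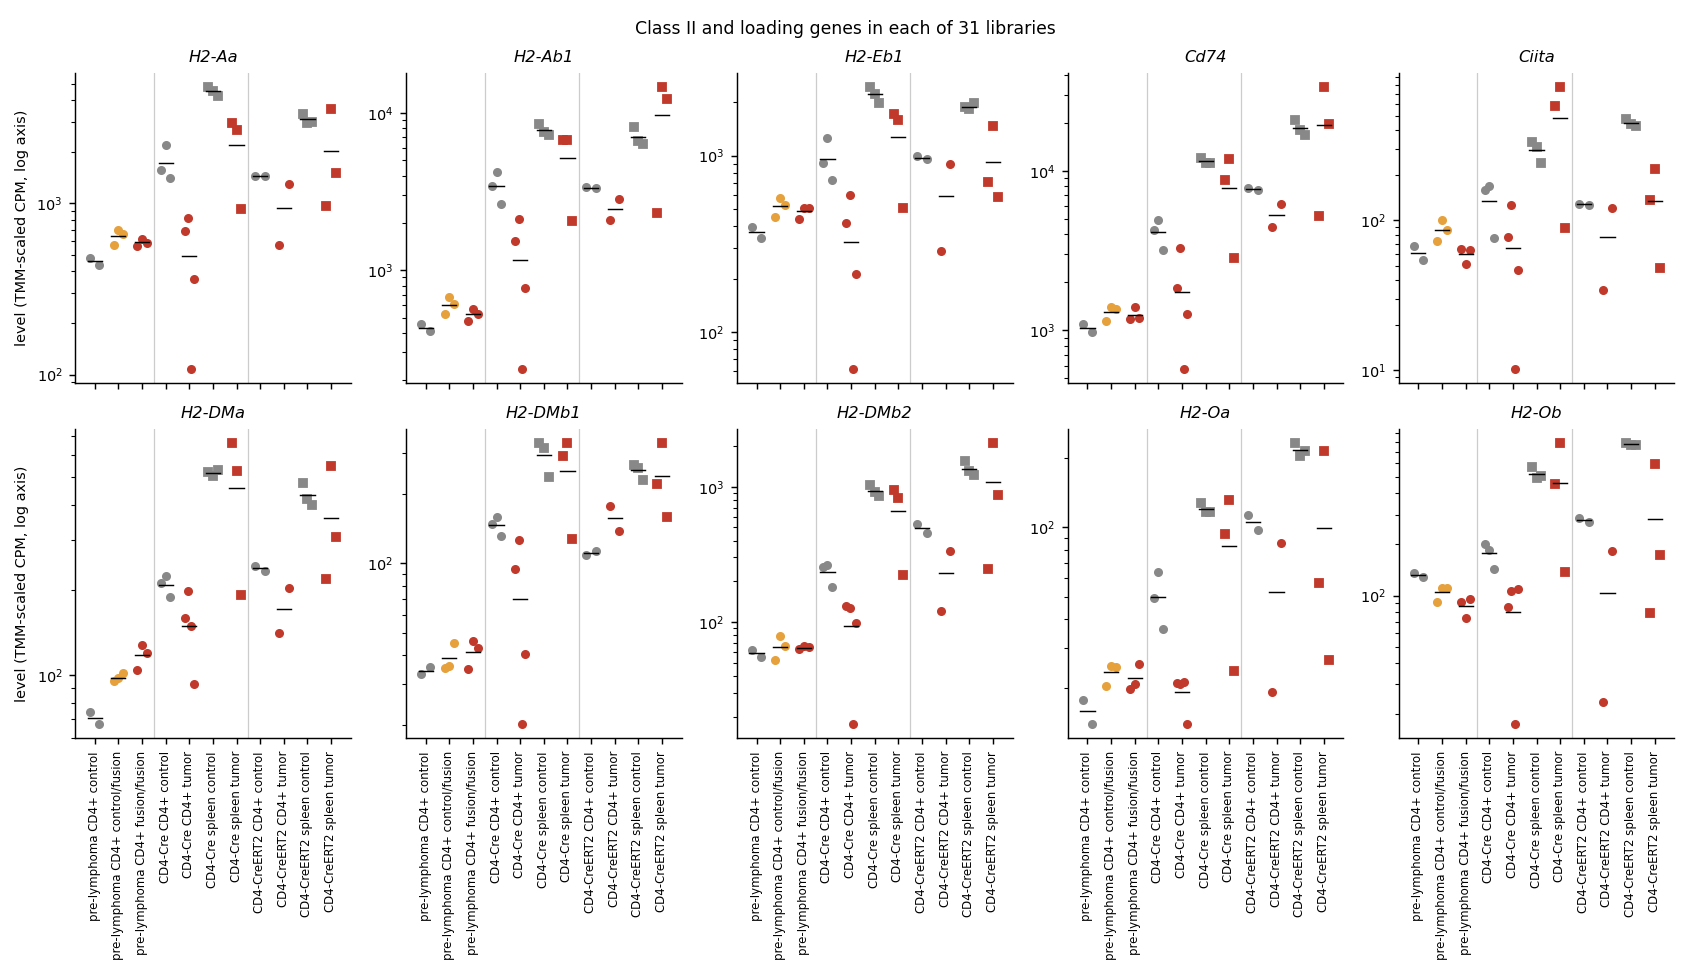
Level of each member in each library (TMM-scaled CPM, log axis); circles are CD4+ cells, squares spleens, grey controls, orange control/fusion, red fusion/fusion or tumor, and bars group means. Control spleens lie above control CD4+ cells of the same set, and tumor VM645 is the lowest CD4-Cre library for 8 members.

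Before lymphoma, the 3 chain genes rose in CD4+ cells of both genotype labels. H2-Aa, the alpha chain of I-A, stood at 480.0 and 439 CPM in the control libraries, at 570.1, 701 and 666 in control/fusion and at 565, 623 and 590.2 in fusion/fusion. Every pre-lymphoma library lay above both controls. It rose by 0.49 ± 0.09 (log2 fold change ± standard error, adjusted p = 0.0027 by edgeR) in control/fusion and by 0.37 ± 0.09 (adjusted p = 0.0053) in fusion/fusion. H2-Ab1, its beta chain, went from 453 and 411 CPM to 529.9, 678 and 607 in control/fusion and 477, 571 and 525 in fusion/fusion, a rise of 0.49 ± 0.11 (edgeR adjusted p = 0.0077) and 0.28 ± 0.11 (adjusted p = 0.0474). H2-Eb1, the beta chain of I-E, went from 395 and 342 CPM to 448, 571 and 524 and to 436, 506 and 505, a rise of 0.48 ± 0.11 (edgeR adjusted p = 0.0094) and 0.39 ± 0.11 (adjusted p = 0.0121). For none of the 3 chain genes did the groups of control and pre-lymphoma libraries overlap. Of all genes, 26.4% lay wholly above the controls in control/fusion and 33.1% in fusion/fusion. In bulk cells, more cells of a type and more RNA per cell cannot be told apart, here and in every result below.

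The invariant chain rose in both labels, while the regulator passed neither test against control and differed between the labels. Cd74 (chromosome 18, 60803848 to 60812646, plus strand) stood at 1101 and 969.8 CPM in controls, at 1144, 1389.8 and 1359.7 in control/fusion and at 1174, 1389 and 1201 in fusion/fusion, and it rose by 0.33 ± 0.10 (edgeR adjusted p = 0.0426) and 0.28 ± 0.10 (adjusted p = 0.0451). Ciita (chromosome 16, 10488178 to 10527564, plus strand) was counted at 67.9 and 54.3 CPM in controls, at 72.9, 101 and 86.5 in control/fusion and at 64.5, 51.4 and 63.2 in fusion/fusion. The fusion/fusion libraries thus lay around the controls, and the control/fusion libraries above both, as for 26.4% of all genes. Against control, Ciita differed by 0.51 ± 0.16 (edgeR adjusted p = 0.0596) and -0.03 ± 0.16 (adjusted p = 0.895), neither past the threshold of 0.05; DESeq2 called the first higher (adjusted p = 0.0031). Between both pre-lymphoma labels it fell by 0.54 ± 0.14 in fusion/fusion (edgeR adjusted p = 0.0356), while the 3 chain genes did not pass that comparison.

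Of the peptide editor H2-DM and its inhibitor H2-DO, both alpha chain genes rose, the H2-DO beta chain gene fell, and the H2-DM beta chain genes passed no test. H2-DMa, the alpha chain of H2-DM, stood at 74.1 and 67.2 CPM in controls, 95.4, 97.8 and 102 in control/fusion and 105, 128 and 120.4 in fusion/fusion, with no overlap between any of the 3 groups. It rose by 0.48 ± 0.09 (edgeR adjusted p = 0.0027) and 0.74 ± 0.09 (adjusted p = 3.3e-05) against control and by 0.26 ± 0.08 (adjusted p = 0.0361) from control/fusion to fusion/fusion. Among all genes, 26.4%, 33.1% and 19.4% lay wholly higher in these 3 comparisons. The beta chain copies H2-DMb1 (33.2 to 46.0 CPM over the 8 libraries) and H2-DMb2 (52.2 to 78.3 CPM) passed no comparison, and with the counts of both summed to 1 gene the changes were 0.17 ± 0.11 (edgeR adjusted p = 0.272) and 0.19 (adjusted p = 0.169). H2-Ob, the beta chain of H2-DO, stood at 136 and 128 CPM in controls, 92.2, 110.1 and 111 in control/fusion and 92.1, 74.0 and 95.3 in fusion/fusion, all below both controls. It fell by 0.34 ± 0.11 (edgeR adjusted p = 0.049) and 0.60 ± 0.11 (adjusted p = 0.001), where 26.3% and 32.8% of all genes lay wholly below the controls. H2-Oa, its alpha chain, went from 17.8 and 14.0 CPM to 20.5, 25.1 and 24.7 and to 20.0, 20.8 and 25.5, a rise of 0.56 ± 0.14 (edgeR adjusted p = 0.014) and 0.47 ± 0.14 (adjusted p = 0.0159). The level of H2-Ob over that of both H2-DM beta chain genes was 1.42 in each control, 0.963 to 1.05 for control/fusion, and 0.661 to 0.940 for fusion/fusion.

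Counted together, 6 of 10 members rose and 1 fell in control/fusion against control, where 11.6% of all genes tested rose and 9.25% fell. In fusion/fusion against control 6 rose and 1 fell, where 23.4% of genes rose and 22.1% fell. The medians over the members were 0.48 and 0.28, against medians near 0 over all genes. Both comparisons share their 2 controls. Between the pre-lymphoma labels, 1 member rose (H2-DMa) and 1 fell (Ciita), against 9.49% and 9.53% of all genes, which is close to that background. The counts lean on control TA019, and a refit without it holds a lone control library. In that refit only H2-DMa (0.41) kept its call in control/fusion, and only H2-DMa (0.66) and H2-Ob in fusion/fusion. Over all genes, calls were fewer in both comparisons as well. Cd74 lost its call in control/fusion without TA018, TA019, TA021, TA022 or TA025 (0.23 to 0.41) and in fusion/fusion without TA018, TA019, TA021, TA022, TA024 or TA025 (0.18 to 0.36), H2-Ab1 lost its call in fusion/fusion without TA018, TA019, TA022, TA024 or TA025 (0.21 to 0.34), and H2-Oa lost its call there without TA019 (0.30) or TA025 (0.36). H2-Ob kept its call in control/fusion only without TA024, going to between -0.39 and -0.26 without another. Between the pre-lymphoma labels, Ciita lost its call without TA021, TA022, TA023, TA024 or TA025 (-0.60 to -0.42) and H2-DMa without TA020, TA021, TA022, TA024 or TA025 (0.19 to 0.28).

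**Figure D2:**
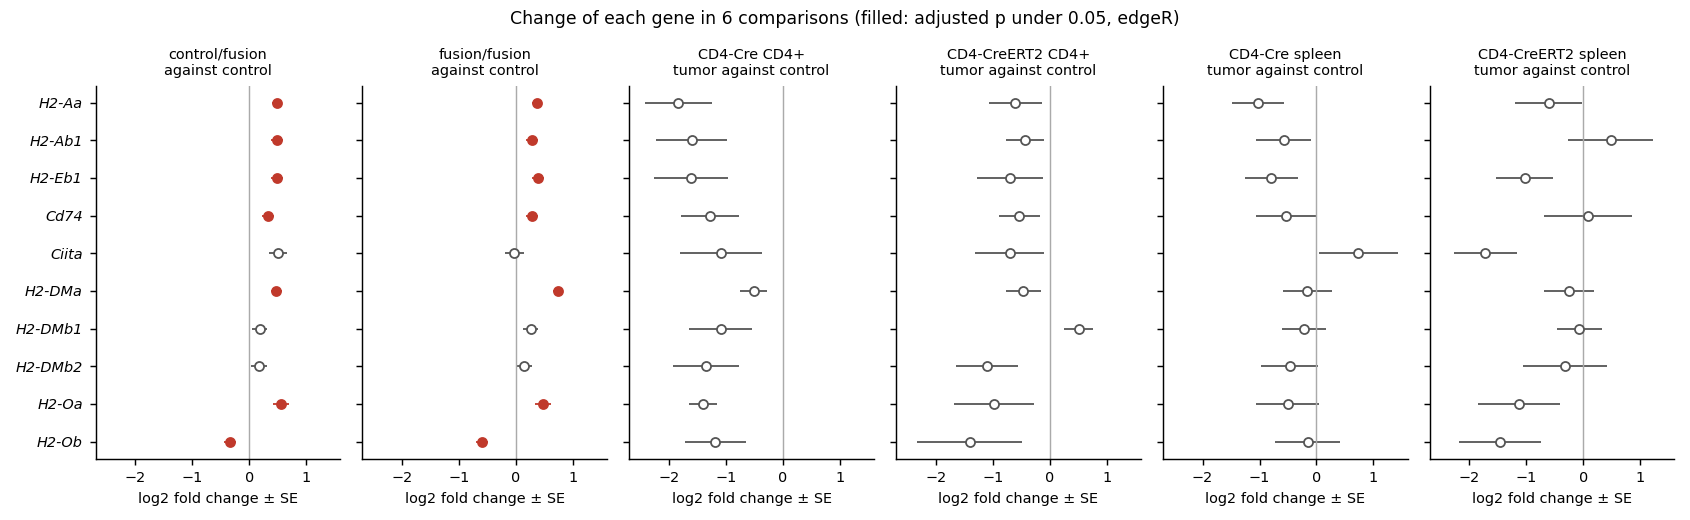
Log2 fold change of each member with its standard error in 6 comparisons (edgeR); red filled points passed at an adjusted p under 0.05. In the pre-lymphoma comparisons most members lie above 0 and H2-Ob below, while the tumor comparisons have wide errors and no red point.

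The summed level of dendritic cell markers was higher along with the chain genes in these libraries, and that of B cell markers was not. Of 8 dendritic cell markers 7 rose in control/fusion (median 1.05), where 11.6% of all genes rose. In fusion/fusion 3 rose (median 0.39), where 23.4% of all genes did. Their summed level was 78.6 and 110.2 CPM in controls, 185 to 259.8 for control/fusion, and 184 to 203 for fusion/fusion. Xcr1, a chemokine receptor of cross-presenting dendritic cells, rose by 1.69 ± 0.18 and 2.62 ± 0.18 (edgeR adjusted p = 7.8e-05 and 4.2e-07). From control/fusion to fusion/fusion it rose by 0.93 ± 0.14 while 3 of the 8 fell, among them Clec4a4 (-1.70 ± 0.23) and Itgax (-0.72 ± 0.13), with a list median of -0.48. Of 11 B cell markers 0 rose and 3 fell in each comparison (medians -0.17 and -0.34), in fusion/fusion close to the 22.1% of all genes that fell, and their sum was 634 and 754 CPM in controls, 546 to 652 for control/fusion, and 555 to 658 for fusion/fusion, which overlaps the controls. Of 14 macrophage and monocyte markers 0 passed in control/fusion (median 0.65) and 1 rose in fusion/fusion (median 0.13), Lyz2, a lysozyme of myeloid cells (1.56 ± 0.18). Their sum was 2215 and 2782 CPM in controls, 2756 to 3632 in 5 pre-lymphoma libraries and 5637 in TA020. Of 7 plasma cell markers 6 rose in fusion/fusion (median 1.13), where 23.4% of all genes rose. The part of these cells in the members' changes was not tested.

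The genes around class II moved in part; over all genes 11.6% rose and 9.25% fell in control/fusion, and 23.4% and 22.1% in fusion/fusion, against which the counts below are to be read. Of 7 endosomal protease and reductase genes, which cut the invariant chain and prepare peptides, 2 rose in each comparison with control: Ifi30, the thiol reductase GILT, by 0.58 ± 0.13 and 0.95 ± 0.13, and Ctsl, a cathepsin, by 1.13 ± 0.29 and 1.54 ± 0.29. That count is close to the share over all genes in fusion/fusion. Of 6 genes of surface turnover and costimulation 4 rose in control/fusion and 3 in fusion/fusion; March8, a ligase of the family that removes class II from the surface, rose by 0.81 ± 0.23 and 1.07 ± 0.23, and Cd83, which protects class II from that loss, by 0.62 ± 0.10 in fusion/fusion. March1, the ligase known to act on class II, rose by 0.52 ± 0.16 in control/fusion and fell by 0.66 ± 0.14 from there to fusion/fusion. The promoter-binding factors did not follow the chain genes: over 7 of them the median change was -0.06 in control/fusion, and in fusion/fusion Nfya (-0.52 ± 0.08) and Creb1 (-0.38 ± 0.08) fell and Nfyb (0.22 ± 0.08) rose. On the interferon-gamma route to Ciita, 1 of 8 genes rose and 1 fell in control/fusion, which is close to the share over all genes, and 2 rose and 4 fell in fusion/fusion, where Ifng itself rose by 1.33 ± 0.28 and its kinase Jak1 fell by 0.48 ± 0.08. Of 9 class I genes, Nlrc5, the class I counterpart of Ciita, fell by 0.24 ± 0.07 and 0.44 ± 0.07, and Psmb8 rose by 0.25 ± 0.08 in fusion/fusion. Of the class II receptors, Cd4 passed neither comparison and Lag3 rose by 1.05 ± 0.26 in fusion/fusion.

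In CD4-Cre tumors, CD4+ cells carried lower levels of all 10 members, but no change passed edgeR's test. H2-Aa stood at 1567, 2197 and 1406 CPM in controls and at 689, 824, 108 and 359 in tumors VM388, VM58, VM645 and VM98, a difference of -1.84 ± 0.59 (edgeR adjusted p = 0.203). H2-Ab1 was at 3425, 4218 and 2656 against 1529.6, 2104, 236 and 767 CPM (-1.60 ± 0.62), and H2-Eb1 at 902, 1254 and 723 against 415, 601, 61.7 and 212 (-1.61 ± 0.65). No tumor library reached a control library for these chains, and VM645 lay far below the other tumors. Cd74 was at 4270.1, 4884 and 3205 against 1828, 3286, 572 and 1255 CPM (-1.28 ± 0.51), and Ciita at 160.4, 170.5 and 76.1 against 77.5, 126, 10.2 and 47.1 (-1.09 ± 0.72). In both, the lowest control lay within the tumor range.

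H2-DMa had the smallest difference among the 10 members: 212, 225 and 189 CPM in controls against 159, 199, 149 and 92.9 in tumors (-0.51 ± 0.24). H2-DMb1 was at 148, 159 and 132 against 94.3, 126, 20.1 and 40.6 CPM (-1.10 ± 0.55) and H2-DMb2 at 253, 264 and 180.1 against 132, 127, 17.5 and 98.7 (-1.34 ± 0.58). H2-Oa was at 21.1, 20.9, 21.3 and 14.0 CPM in tumors, with VM98 set apart as the lowest, against 49.2, 63.7 and 36.1 in controls. Its difference of -1.40 ± 0.24 came closest to the threshold (edgeR adjusted p = 0.0686). H2-Ob was at 202, 187 and 143 against 85.4, 106, 17.4 and 109 CPM (-1.19 ± 0.53). The range of tumors lay wholly below that of controls for 7 members, against 9.06% of all genes. By edgeR 0 of 10 members passed, where 0.191% of all genes did; at an unadjusted p under 0.05 it was 5 members and 2692 of 17841 genes. DESeq2 called 2 members lower, H2-Aa and H2-Oa, and 3.43% of all genes. Without VM98, H2-Oa passed in edgeR as well (-1.28, adjusted p = 0.0362). In that refit 323 of 17371 genes were lower and 253 higher, against 30 and 4 in the main fit.

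Dendritic and macrophage marker sums were lower in each of the same tumors, B cell marker sums in all but VM98, and class I was not lower. B cell markers summed to 958 to 1553 CPM in controls and to 657, 728, 70.8 and 971 in VM388, VM58, VM645 and VM98. Dendritic markers summed to 381 to 579 in controls and 28.9 to 126 in tumors, and macrophage markers to 5029 to 7375 and 507 to 4462. In VM645, with the lowest members, all 3 sums were lowest, T cell markers were highest (6508 CPM against 3911 to 4580 in controls) and 1 of 14 macrophage markers was at 0. The class I chain gene H2-K1 reached 38410 CPM in that library, against 4030.0 to 6497 CPM in controls, and H2-D1 42580 against 6543 to 9942 CPM. Neither passed the test between groups. By edgeR 1 of 11 B cell markers (Cr2, -4.43 ± 0.52) and 2 of 14 macrophage markers (Slc40a1, Cd163) fell, where 0.191% of all genes passed in either direction. Plasma cell markers summed to 1748, 2431 and 7679 CPM in controls. In tumors VM388, VM58, VM645 and VM98 they summed to 1034, 527, 783 and 7712 CPM, with VM98 above every control. The part of these cells in the members' levels was not tested.

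In CD4-Cre spleens the chain genes were lower in each tumor and Ciita was not, with no member past the test. H2-Aa stood at 4758, 4508 and 4260.0 CPM in controls and 2939, 2696 and 921 in tumors VM388, VM58 and VM98 (-1.03 ± 0.45, edgeR adjusted p = 0.371). Ciita was at 333, 309 and 240.1 CPM in controls and 581, 774 and 89.3 in tumors (0.74 ± 0.69): VM388 and VM58 lay above every control and VM98 below. Levels of the 10 members in VM98 were below those of both other tumor spleens, for example 2820.2 CPM of Cd74 against 8788 and 11788, and 137 CPM of H2-Ob against 451 and 792. B cell markers summed to 1949 CPM in VM98 and to 5677 and 6754 in the other tumor spleens, against 7433 to 8330.0 in controls. For 3 members, the chain genes, tumors lay wholly below controls, against 11.3% of all genes. By edgeR 0 members and 0% of genes passed; at an unadjusted p under 0.05 it was 0 members and 2377 genes, and DESeq2 called 0 members. Without VM98, H2-DMa (0.25), H2-DMb1 (0.14) and H2-Ob (0.31) turned to positive differences.

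In the CD4-CreERT2 model the CD4+ cells of both tumors were unlike each other. VM236 lay nearer to its controls, and VM231 far below them in 9 members. H2-Aa stood at 1439 and 1444 CPM in controls, 574 in VM231 and 1305 in VM236; H2-Ab1 at 3366 and 3316 against 2086 and 2828; H2-Eb1 at 993 and 953 against 288 and 891. Cd74 was at 7823 and 7582 against 4418 and 6144, and Ciita at 129 and 127 against 34.4 and 121. H2-DMb2, H2-Oa and H2-Ob were lowest in VM231 relative to controls. H2-DMb2 was at 528 and 458 CPM in controls, 120.0 in VM231 and 337 in VM236, H2-Oa at 113 and 97.4 against 19.4 and 85.7, and H2-Ob at 286 and 269.6 against 23.5 and 183. H2-DMb1 went the other way, with 109 and 113 CPM in controls against 177 in VM231 and 138 in VM236.

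Over both tumors 9 members lay wholly below the controls and 1 (H2-DMb1) wholly above, against 16.8% and 13.4% of all genes. By edgeR 0 of 10 members and 0% of genes passed, with 0 members and 877 genes at an unadjusted p under 0.05, and DESeq2 called 0 members; H2-Ob differed by -1.41 ± 0.92, H2-DMb2 by -1.09 ± 0.54 and H2-DMb1 by 0.51 ± 0.26. Without VM236, with the lone tumor library assumed to vary like the controls, 9 members were lower and H2-DMb1 higher, where 17.8% of all genes passed; the differences ran from -3.55 for H2-Ob and -2.43 for H2-Oa to -0.67 for H2-Ab1 and 0.68 for H2-DMb1. B cell markers summed to 3043 and 3201 CPM in controls, 477 in VM231 and 1621 in VM236, and macrophage markers to 569 and 1156 against 3736 and 5320. Dendritic markers were 108 and 183 in controls, 490.0 in VM231 and 230.4 in VM236, where Xcr1 alone gave 428 CPM in VM231. The part of these cells was not tested.

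CD4-CreERT2 tumor spleens split the class II genes from each other. H2-Ab1 stood at 8188, 6665 and 6387 CPM in controls and at 2299, 14580.0 and 12207 in tumors VM231, VM236 and VM294 (0.48 ± 0.75), and Cd74 at 20874, 18130.0 and 16799 against 5173, 33354 and 19753 (0.08 ± 0.77). VM236 lay above every control for both genes and VM231 far below. H2-Aa was at 3317, 2944 and 3004 against 965, 3563 and 1507 CPM (-0.61 ± 0.59), and H2-Eb1 at 1883, 1828.5 and 1976 against 711, 1477 and 579 (-1.03 ± 0.50). Ciita was at 474, 442 and 425 CPM in controls and 138, 219 and 48.2 in tumors, with no overlap (-1.72 ± 0.56, edgeR adjusted p = 0.2). H2-Ob was at 793, 767 and 772 against 79.1, 592 and 174 CPM (-1.46 ± 0.72), and H2-Oa at 232, 204 and 215 against 57.3, 214 and 26.5 (-1.13 ± 0.71). H2-DMa (-0.25 ± 0.44), H2-DMb1 (-0.07 ± 0.39) and H2-DMb2 (-0.32 ± 0.73) had small differences with wide errors. Ciita, H2-Eb1 and H2-Ob lay wholly below controls, 3 members, against 19.3% of all genes. By edgeR 0 members and 0% of genes passed; at an unadjusted p under 0.05 it was 1 member (Ciita) and 3127 genes, and DESeq2 called Ciita lower (-1.68, adjusted p = 0.0336) with 3.01% of genes. B cell markers summed to 10320 to 10580 CPM in controls and 1193, 6939 and 2799 in VM231, VM236 and VM294, and macrophage markers to 1494 to 1861 against 15960, 6002 and 14280. Their part was not tested.

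**Figure D3:**
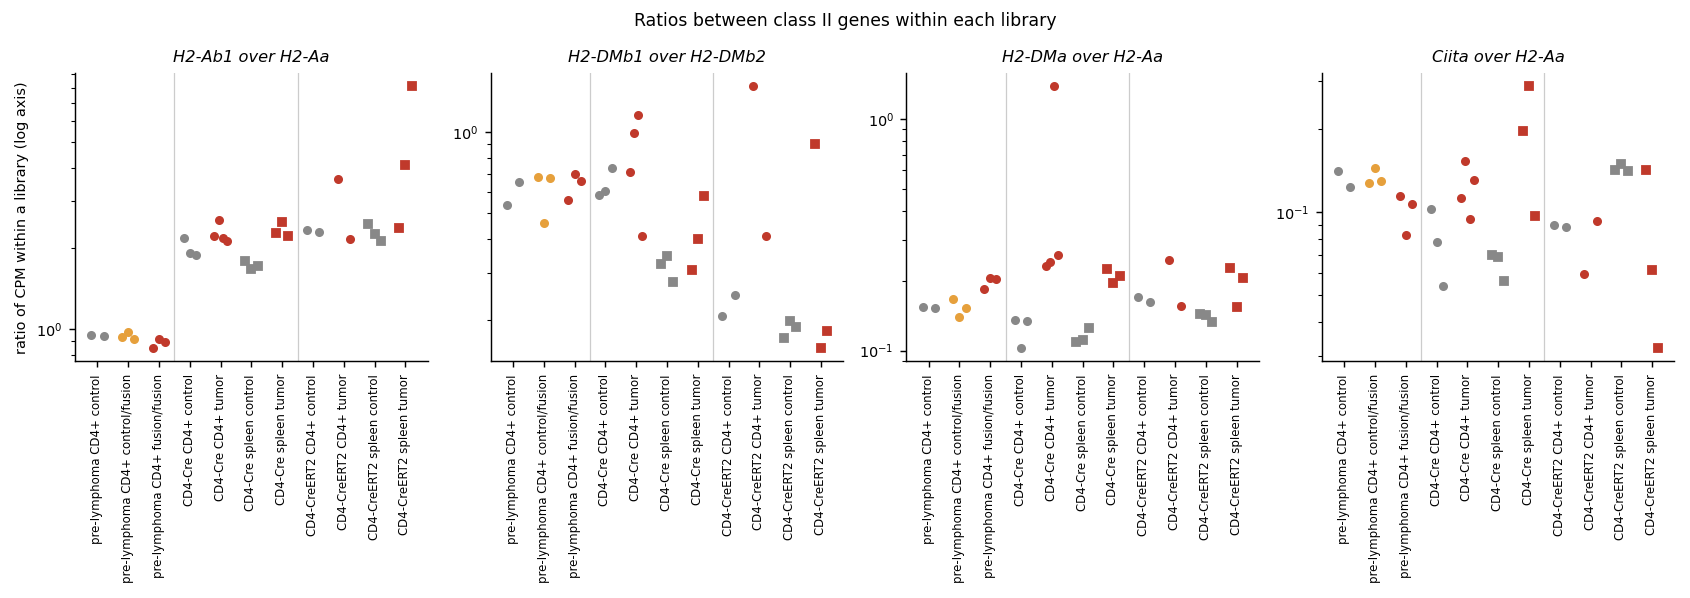
Ratios of levels within each library: H2-Ab1 over H2-Aa, H2-DMb1 over H2-DMb2, H2-DMa over H2-Aa and Ciita over H2-Aa, by group. VM294 (8.10) and VM236 (4.09) stand out in the first panel, VM231 in the second and tumor VM645 (1.38) in the third.

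Ratios within a library do not depend on how libraries are scaled, and they set some tumors apart. H2-Ab1 over H2-Aa, the beta over the alpha chain of I-A, ran from 0.844 to 0.968 over the 8 libraries with pre-lymphoma cells or their controls, and from 1.67 to 2.47 in the control libraries of the other sets. Control CD4+ cells alone differed in this way, with 0.936 and 0.944 against 1.89 to 2.34. The gap goes with the set, and its cause cannot be told apart from other differences between sets. The ratio was 8.10 in the spleen of VM294, 4.09 in that of VM236 and 3.63 in the CD4+ cells of VM231. In CD4-Cre spleens the 3 tumors (2.22 to 2.51) all lay above the 3 controls (1.67 to 1.79), while in CD4-Cre CD4+ cells tumors (2.13 to 2.55) and controls (1.89 to 2.19) overlapped. The CD4+ cells of VM236 (2.17) and the spleen of VM231 (2.38) were the other CD4-CreERT2 tumor libraries. H2-DMb1 over H2-DMb2 was 0.207 and 0.248 in CD4+ cells of CD4-CreERT2 controls and 1.48 in VM231, where spleen also had 0.904 against 0.172 to 0.199 in control spleens; VM236 had 0.410 in CD4+ cells and 0.157 in spleen. H2-DMa over H2-Aa was 0.102 to 0.136 in CD4-Cre control CD4+ cells and 0.231, 0.241, 1.38 and 0.259 in the tumors VM388, VM58, VM645 and VM98, and 0.109 to 0.125 against 0.195 to 0.225 in spleens. In both tissues every tumor exceeded every control. In the pre-lymphoma set the same ratio was 0.153 and 0.154 in controls, 0.140 to 0.167 for control/fusion, and 0.185 to 0.206 for fusion/fusion. Ciita over H2-Aa lay above the control range (0.0564 to 0.0700) in all 3 CD4-Cre tumor spleens, at 0.197, 0.287 and 0.0969, and lay below the control range (0.141 to 0.150) in the CD4-CreERT2 spleens of VM236 (0.0615) and VM294 (0.0320). These ratios were not tested, and genes that share sequence or overlap others enter some of them.

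Whole spleen held more class II RNA than CD4+ cells of the same mouse, in every member and mouse. The level in CD4+ cells was a share of that in spleen whose median over the 10 members ran from 22.6% in tumor VM388 and 29.2% in tumor VM58 to 54.3% in tumor VM231. In the 5 control mice with both tissues the medians were 32.3% to 49.6%. The highest shares were in VM231 for H2-Ab1 (90.8%) and Cd74 (85.4%), and in VM98 for H2-Ob (79.8%), and the lowest were for Ciita (13.3%) in VM388 and H2-Ob (13.4%) in VM58. H2-DMb2 had the lowest share of the 10 members in the control mice VM211, VM216 and VM645 and in tumor VM236.

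**Figure D4:**
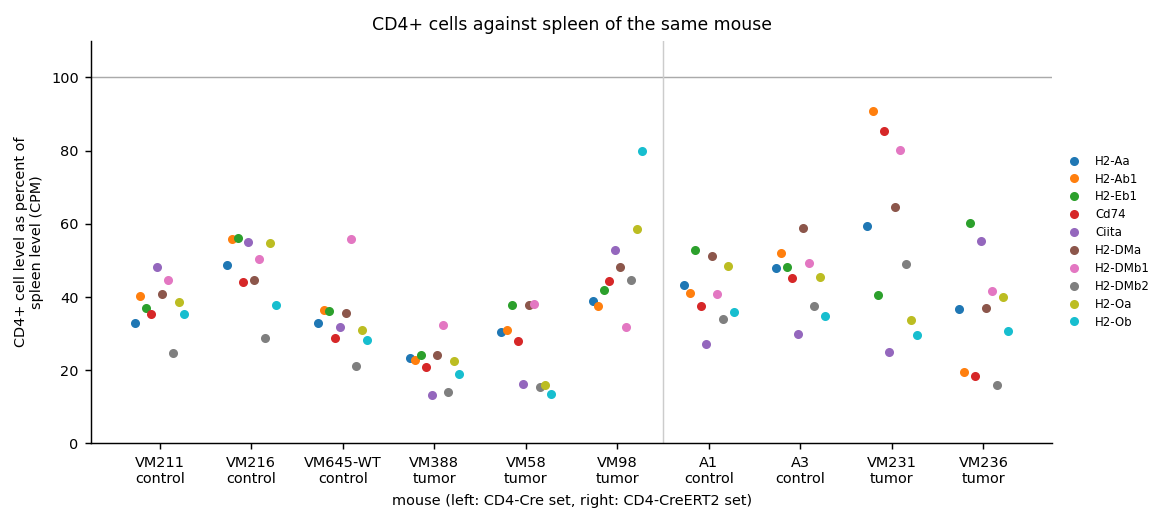
Level of each member in CD4+ cells as a percent of the level in spleen of the same mouse, 10 mice of the CD4-Cre and CD4-CreERT2 sets. All points lie under 100%, with tumors VM388 and VM58 low and VM231 spread most widely.

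In CD4-Cre tumors 6 members were lower in CD4+ cells than in spleen by edgeR: H2-DMb2 (-2.82 ± 0.59, adjusted p = 0.022), H2-Ob (-2.53 ± 0.59, adjusted p = 0.0317), Cd74 (-2.17 ± 0.53, adjusted p = 0.0356), H2-Aa (-2.14 ± 0.55, adjusted p = 0.0442), H2-Oa (-2.10 ± 0.42, adjusted p = 0.0175) and H2-DMa (-1.62 ± 0.34, adjusted p = 0.0218). Ciita (-2.88 ± 0.77), H2-Ab1 (-2.16 ± 0.58), H2-Eb1 (-1.98 ± 0.60) and H2-DMb1 (-1.83 ± 0.50) just missed, and 2.59% of all genes were lower. DESeq2 called all 10 members lower, and 1400 of 19503 genes. With the mouse as a block, which uses mice that gave both tissues, 9 members were lower and H2-Ob lost its call (edgeR adjusted p = 0.0559), where 3.16% of genes were lower. The count rests on single libraries: it was 1 without the spleen of VM388, 10 without the CD4+ library of VM58, and 1 without all libraries numbered VM645. Over all genes, 413 of 20824, 622 of 19362 and 117 of 20457 were lower in these refits. H2-Aa (-2.34 to -1.95) and Cd74 (-2.19 to -1.74) lost their calls without any single library of the set other than the CD4+ libraries of tumors VM58 and VM645 and the spleen of VM98, and H2-Ob (-2.64 to -1.89) without any other than these and the CD4+ library of VM98. H2-DMa lost its call without either library of VM388. In these CD4+ cells 8 of 11 B cell markers fell against spleen (median -3.12) and all 8 T cell markers rose (median 2.28).

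In CD4-Cre controls the differences had the same sign with a median of -1.29, and the CD4+ range lay wholly below the spleen range for all 10 members, against 20.1% of all genes. By edgeR 0 members passed, where 1.64% of genes did, with 6 members and 3270 genes at an unadjusted p under 0.05. The mouse as a block called 7 members lower, where 3.64% of genes were: H2-DMb2 by -2.02, Cd74 by -1.49, H2-Aa by -1.41, H2-DMa by -1.31, H2-Eb1 by -1.24, H2-Ab1 by -1.20 and H2-DMb1 by -0.996. Ciita, H2-Oa and H2-Ob did not pass there. DESeq2 called 2 members lower, H2-DMa and H2-DMb2, and 2.77% of genes. In edgeR, H2-DMb2 (-2.001) passed without the tumor library VM645, and H2-DMa (-1.31) and H2-Oa (-1.26) without the spleen of VM98, since all 4 groups share 1 estimate of the spread. Over all genes, 215 of 19333 and 207 of 20700 were lower in these refits.

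In the CD4-CreERT2 set the members' median differences between CD4+ cells and spleen were -1.14 in controls and -1.08 in tumors, and by edgeR 0 members and 0% of genes passed in either. At an unadjusted p under 0.05 it was 2 members and 994 genes in controls and 4 members and 1933 genes in tumors, and DESeq2 called 0 members in both. All 10 members were wholly lower in control CD4+ cells than in control spleens, against 25.8% of all genes, but in tumors H2-DMa was the only one, against 6.34%. The tumor effect in CD4+ cells minus that in spleen was tested as an interaction. Its median over the members was -0.82 in the CD4-Cre set, from -1.77 ± 1.09 for Ciita to -0.30 ± 0.50 for H2-DMa, and 0.02 in the CD4-CreERT2 set, from -0.90 ± 0.97 for H2-Ab1 to 1.004 ± 0.91 for Ciita. By edgeR 0 members and 0% of genes passed either interaction, 0 members had an unadjusted p under 0.05, with 1432 and 451 genes at that level, and DESeq2 called 0 members. With such errors neither a shared nor a different tumor effect in both tissues was detectable.

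Class II chain levels and B cell markers were both higher in control spleens than in control CD4+ cells, but not in a fixed ratio. The sum of H2-Aa, H2-Ab1 and H2-Eb1 was 1.08 to 2.004 times the sum of the 11 B cell markers in the spleens of controls and of CD4-Cre tumors. It was 3.33, 2.83 and 5.11 times in the CD4-CreERT2 tumor spleens VM231, VM236 and VM294. In CD4+ cells it was 1.81 and 1.88 in CD4-CreERT2 controls, 6.175 in VM231 and 3.10 in VM236, and 3.795 to 8.003 in CD4-Cre controls against 1.38 to 5.725 in tumors. In the pre-lymphoma set it was 1.76 and 1.88 in controls, 2.76 to 3.21 for control/fusion, and 2.25 to 2.97 for fusion/fusion, so every pre-lymphoma library held more chain RNA per B cell marker RNA than both controls. That difference was not tested. Dendritic marker sums did not share this order of the tissues. In CD4-Cre controls they were 381 to 579 CPM in CD4+ cells and 271.5 to 327.9 in spleens. In CD4-CreERT2 controls they were 107.8 and 183 against 117.3 to 155.8 CPM, which overlap. Macrophage marker sums were higher in control spleens of both sets, but their median change in CD4-Cre controls was 0.94 toward CD4+ cells. The part of these cells was not tested.

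**Figure D5:**
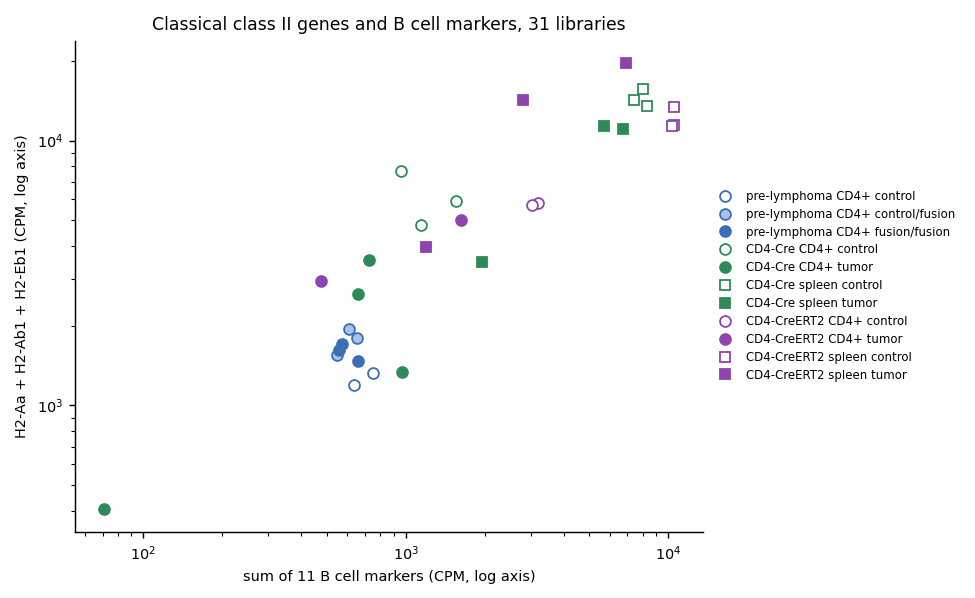
Summed level of H2-Aa, H2-Ab1 and H2-Eb1 against that of 11 B cell markers in each library (TMM-scaled CPM, log axes); circles CD4+ cells, squares spleens, open controls, filled tumor or fusion/fusion, light blue control/fusion. Control spleens lie at the upper right and tumor VM645 (406 and 70.8 CPM) has the least of both; CD4+ tumor VM98 (1338 and 971) has more B cell marker RNA but less chain RNA than tumors VM388 (2633 and 657) and VM58 (3529 and 728).

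With all groups pooled, the members varied together around their group means. Groups with a wide spread weigh most in this, and in CD4-CreERT2 tumor spleens some members split from each other. Over the 31 libraries, as log2 deviations from the group means, each member's correlation with the mean of the other 9 was 0.974 for H2-Aa, 0.935 for H2-Eb1, 0.930 for H2-DMb2, 0.903 for Cd74, 0.887 for H2-Ob, 0.872 for Ciita, 0.866 for H2-Ab1, 0.785 for H2-DMb1, 0.743 for H2-DMa and 0.645 for H2-Oa. Among 9809 genes outside the set, the most like the members' mean were Kmo (0.932), Pax5 (0.893), Siglecg (0.884), Bcl11a (0.878), Rrad (0.874), Pxdc1 (0.873), Bend5 (0.866), Ebf1 (0.862), Snx8 (0.860) and Lta (0.859). Pax5 and Ebf1, transcription factors of B cells, were among the fixed B cell markers. These values describe the 31 libraries, which share their group means, depth and composition between genes, and carry no test.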

How the data were processed

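Polyadenylated RNA from CD4+ T cells (19 libraries) or whole spleen (12) was made into SMART-Seq v4 and Nextera XT libraries, per the labels' protocols. The deposited values are raw counts of reads per gene, which the authors did not scale; the submitters' processing notes name HISAT2 2.1.0, HTSeq 0.5.4 and builds mm10 and GRCm38. The strand setting and annotation release are not given in the sources used here. The CD4-CreERT2 tables have other columns than those of the other sets (Ensembl identifier, exon positions, length and count), and which counter made them is not given. Their identifiers were matched to symbols in a reference table of gene names (48970 of 49315). Reads were amplified without molecular identifiers, so counting precision overstates the number of molecules.

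Each comparison was fitted over all genes with edgeR 4.0.16 in R 4.3.3: filterByExpr, TMM scaling and the two-sided robust quasi-likelihood F test, with Benjamini-Hochberg adjustment over all genes tested and a threshold of 0.05. The standard error is the size of the log2 fold change over the square root of F. The 3 pre-lymphoma groups shared 1 fit, the tumor comparisons used only their own groups, and comparisons of tissues and interactions used the 4 groups of a set. Levels are TMM-scaled CPM; levels of the separate sets were scaled separately, so levels are tested only within a set. Fits were tested on simulated counts.

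The members, the 6 pathway lists and the 7 marker lists (97 genes) were chosen with earlier results of these data known. All members are named in every comparison; of a list, up to 3 that passed with the largest change at a mean log2 CPM of at least 1 may be named, and the text prints a part of these. Other names were chosen after their values were seen: H2-Ea-ps, BC051537 and, in VM231, Xcr1, and H2-K1 and H2-D1 in VM645. Likeness is Pearson's correlation of log2(CPM + 1) deviations from group means, over genes of mean log2 of at least 3.

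CD4+ cells and spleen with 1 number are from the same mouse; their deviations from the group means correlated at 0.161 to 0.352 in the CD4-Cre set, and at 0.268 and 0.393 in the CD4-CreERT2 set, so the mouse was used as a block in an alternative. Alternatives were RLE scaling, TMM on fewer genes (those of immunoglobulins, T cell receptors, haemoglobins and mitochondria left out), no filter, DESeq2 1.42.0, H2-DMb1 and H2-DMb2 summed, other groups in or out of the fit, a term for sex, the libraries numbered VM645 left out, and each library left out in turn. Promoter windows and starts are from RefSeq, gene overlaps from GENCODE M21, both on GRCm38. Tables were made with Python 3.11.15, pandas 2.3.3, numpy 2.4.6 and matplotlib 3.10.9.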

Additional observations from a re-analysis of the deposited data

Results flagged for a closer look

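In CD4+ cells of CD4-Cre tumors, 1 library was set apart in H2-Oa: VM98 had 13.97 CPM, and its gap to the next library was 0.94 of the range of the group. That range is narrow, with the other libraries at 20.875 to 21.313 CPM. In the same group the level of H2-DMa over that of H2-Aa was 1.379 in VM645, with a gap of 0.976 of the range, because H2-Aa was at 108 CPM there and H2-DMa at 149. Both values were set apart among 18 groups of values looked at in this way, and chance sets apart about 1 in 20. Levels and ratios share genes and libraries, so the 18 are not independent and that rate is only a rough guide.

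The change from control differed between fusion/fusion and control/fusion in 2 members by edgeR's test of that difference: Ciita by -0.5394 (adjusted p = 0.0356) and H2-DMa by 0.2574 (adjusted p = 0.0361). H2-DMb1 lay below controls in all CD4-Cre tumor CD4+ cells (-1.095) and above controls in both CD4-CreERT2 tumor CD4+ libraries (0.51); the difference between the models was not tested.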

How the results depend on the processing

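Each library held at least 12632196 gene counts, and precision is limited by groups of 2 to 4 libraries. Counts of members that passed moved by 1.5 times or more, or from 0, as follows. Without the filter on low counts, 4 members passed between the pre-lymphoma labels (2 with it), 1 in CD4-Cre tumor CD4+ cells (0) and 2 between the tissues of CD4-Cre tumors (6). DESeq2 called 2 in CD4-Cre tumor CD4+ cells (0), 1 in CD4-CreERT2 tumor spleens (0), 2 between the tissues of CD4-Cre controls (0) and 10 between those of tumors (6). Between the tissues of CD4-Cre tumors, 1 passed without the libraries numbered VM645 and 4 with a term for sex. The mouse as a replicate block called 7 between the tissues of CD4-Cre controls (0) and 9 in tumors (6), and changed no other count of members.

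Leaving out 1 library at a time gave 1 (without TA019) to 8 members for control/fusion against control, 2 (without TA019) to 8 for fusion/fusion against control, and 0 (without TA021, TA022, TA024 or TA025) to 3 between the 2 labels. It gave 0 to 1 (without VM98) in CD4-Cre tumor CD4+ cells, 0 to 10 (without VM236) in CD4-CreERT2 tumor CD4+ cells, 0 to 2 between the tissues of CD4-Cre controls and 1 to 10 between those of tumors; the other counts stayed at 0. Counts over all genes moved as well: from 3395 to between 1171 and 3960 in control/fusion, from 3091 to between 1729 and 3701 between the pre-lymphoma labels, from 34 to 0 to 1263 in CD4-Cre tumor CD4+ cells, from 319 to 0 to 1589 and from 1028 to 237 to 2690 between the tissues of CD4-Cre controls and tumors, and from 0 to at most 737 in CD4-Cre spleens, 3250 and 1817 in CD4-CreERT2 CD4+ cells and spleens, 221 and 716 between the tissues of CD4-CreERT2 controls and tumors, and 51 in the CD4-Cre interaction.

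Of 2014 single values recomputed, 34 changed sign, none of them past the threshold before or after; 52 came to pass it and 87 ceased to. In control/fusion, H2-Ob missed it with RLE scaling (adjusted p = 0.0522 by edgeR) and with TMM on fewer genes (adjusted p = 0.0548). Sign changes without 1 library, as the lowest and highest log2 fold change, were in fusion/fusion against control for Ciita (-0.1881 to 0.1305); between the pre-lymphoma labels for Cd74 (-0.1319 to 0.003394), H2-DMb2 (-0.1626 to 0.1119) and H2-DMb1 (-0.01091 to 0.2038); in CD4-Cre spleens for H2-DMa (-0.4641 to 0.2514), H2-DMb1 (-0.4719 to 0.1377) and H2-Ob (-0.8086 to 0.3144); in CD4-CreERT2 spleens for H2-DMb2 (-1.094 to 0.1431), Cd74 (-0.3903 to 0.5264) and H2-DMb1 (-0.2875 to 0.134); and between the tissues of CD4-CreERT2 tumors for H2-Oa (-2.367 to 0.3242). In the CD4-CreERT2 interaction they were H2-Aa (-0.7139 to 0.6999), H2-DMa (-0.4985 to 0.2342), H2-Oa (-1.316 to 1.371), H2-Ob (-2.096 to 1.188), H2-Eb1 (-0.7251 to 0.9486), Ciita (-0.1865 to 1.678), Cd74 (-1.066 to 0.0274) and H2-DMb2 (-1.706 to 0.1648). There, H2-Aa was also -0.0395 with RLE scaling or DESeq2 and -0.007446 with TMM on fewer genes, and the replicate block gave H2-Eb1 -0.02012, H2-Oa -0.3404 and H2-Ob -0.2171. The cause of these changes was not tested.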
